A study of Mus musculus with 12 samples.

Results

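The genes described here are the chaperones, folding enzymes and degradation factors of the endoplasmic reticulum (ER), together with the sensors of the unfolded protein response. They were taken by symbol from a list of 35 genes, with the probe set of highest mean signal standing for each symbol. Of the 35, 34 were found among 22180 genes with a probe set of their own, and all 34 passed the filter on low signal that left 13153 genes for testing. Pdia4 shares its probe set with other symbols and is not analysed here. The choice by list used no measured value of these arrays, although earlier results of the same arrays were known when the list was drawn up.

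The samples were cultures of SKPs, the skin-derived precursors of mouse dermis, which form spheres in suspension and can give rise to dermal cell types. There were 4 groups with 3 cultures each, all from mice 9 months old, with the strain labelled CD57/Bl6: injured skin treated with trimebutine maleate (a drug used for gut motility), injured skin treated with alprostadil (a prostaglandin), injured skin treated with vehicle, and uninjured skin treated with vehicle. All groups were secondary spheres, seeded at 50000 cells per ml in medium holding 40 ng/ml of FGF2, 20 ng/ml of EGF and 2% of B27. The labels count the samples as biological replicates from independent isolates, and the labels state no drug dose, duration, vehicle or site of the skin. RNA was measured on 1 Affymetrix Mouse Gene 2.0 ST array per culture, and each value below is a deposited log2 level, so that 1 unit is a doubling. Values of the replicates 1, 2 and 3 of a group are always listed in that order, and no gene's level is compared with that of another gene, because probes differ in brightness.

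Proteins that enter the secretory pathway fold in the ER with the help of chaperones, sugar-binding lectins and disulfide isomerases, and those that fail are sent to the cytosol for degradation. When unfolded proteins build up, the membrane sensors encoded by Atf6, Ern1 (IRE1) and Eif2ak3 (PERK) start the unfolded protein response: the cleaved ATF6 fragment and the XBP1 protein made from spliced Xbp1 mRNA switch on chaperone and degradation genes, and PERK slows translation. Dermal fibroblasts secrete large amounts of collagen and other matrix proteins and so depend on this machinery.

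The dermal markers Fn1, Vim and Dcn were bright on all arrays (13.61 or above), as were Pdgfra (11.19 or above) and Col1a1 (11.95 or above), whereas the SKP marker Nes reached at most 7.12 and Sox2 at most 5.61 on arrays whose medians lay between 6.57 and 6.74. One array stood apart in cell content. Of the 11 tested macrophage markers, all 11 were above their own mean on the first wound alprostadil array, where the list averaged 3.61 above its mean over the 12 arrays, against -1.11 to 0.36 on each of the other arrays. Csf1r, the receptor that defines macrophages, was at 10.12 there and at 6.95 or below elsewhere. Plasma cells are rich in ER, and of 9 plasma and B cell markers measured, only Sdc1, which fibroblasts also express, passed the filter. Jchain, Cd79a, Ms4a1, Irf4, Pou2af1 and Tnfrsf17 were at 5.99 or below, under every array's median. Mzb1 lay between 6.30 and 6.73, near the medians, and Cd79b between 6.01 and 7.75, with its highest values on the third wound vehicle (7.75) and the third trimebutine (7.19) arrays, where most ER genes were low. The filter also passed 5 of 11 keratinocyte, 4 of 10 endothelial and 3 of 8 adipocyte markers. It passed 6 of 10 melanocyte and Schwann markers and 6 of 10 skeletal muscle markers. The markers of a list did not go together. Lpl lay between 10.01 and 11.60, but Adipoq reached at most 5.60. Mitf lay between 9.11 and 9.86, but Dct reached at most 6.25. Cdh5 lay between 6.41 and 9.98, but Pecam1 reached at most 6.14. Krt14 lay between 6.39 and 6.86, but Sfn between 8.36 and 8.63. In such bulk cultures, fewer cells of a type and less RNA per cell cannot be told apart.

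Most of the ER genes moved together over the 12 arrays, and the division ran across the groups rather than between them. The mean of the 34 centred levels (each gene minus its own mean over all arrays) was 0.01, -0.35 and -0.34 on the trimebutine arrays, 0.42, 0.36 and -0.30 on the alprostadil arrays, 0.44, 0.45 and -0.33 on the wound vehicle arrays, and -0.37, -0.38 and 0.41 on the uninjured vehicle arrays. The first and second arrays of wound alprostadil and of wound vehicle and the third uninjured vehicle array were thus high, the first trimebutine array was in between, and the other 6 arrays were low, with every group that received no trimebutine holding both high and low arrays. All 34 genes were above their own mean on the third uninjured vehicle array, and 31 and 30 were on the first and second wound vehicle arrays. Only 2 and 3 genes were above it on the first and second uninjured vehicle arrays, and 4 were on the third wound vehicle array. The division was not confined to the ER genes. The first principal component of the arrays (the axis of largest variance) held 43.83% of the variance. It was 19.32 and 29.62 on the first and second alprostadil arrays and 34.1 and 38.88 on those of wound vehicle. It was 7.45 on the third uninjured vehicle array and negative on all others, from -27.73 to -10.83. The part of this wider difference in the levels of the ER genes was not tested.

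**Figure D1:**
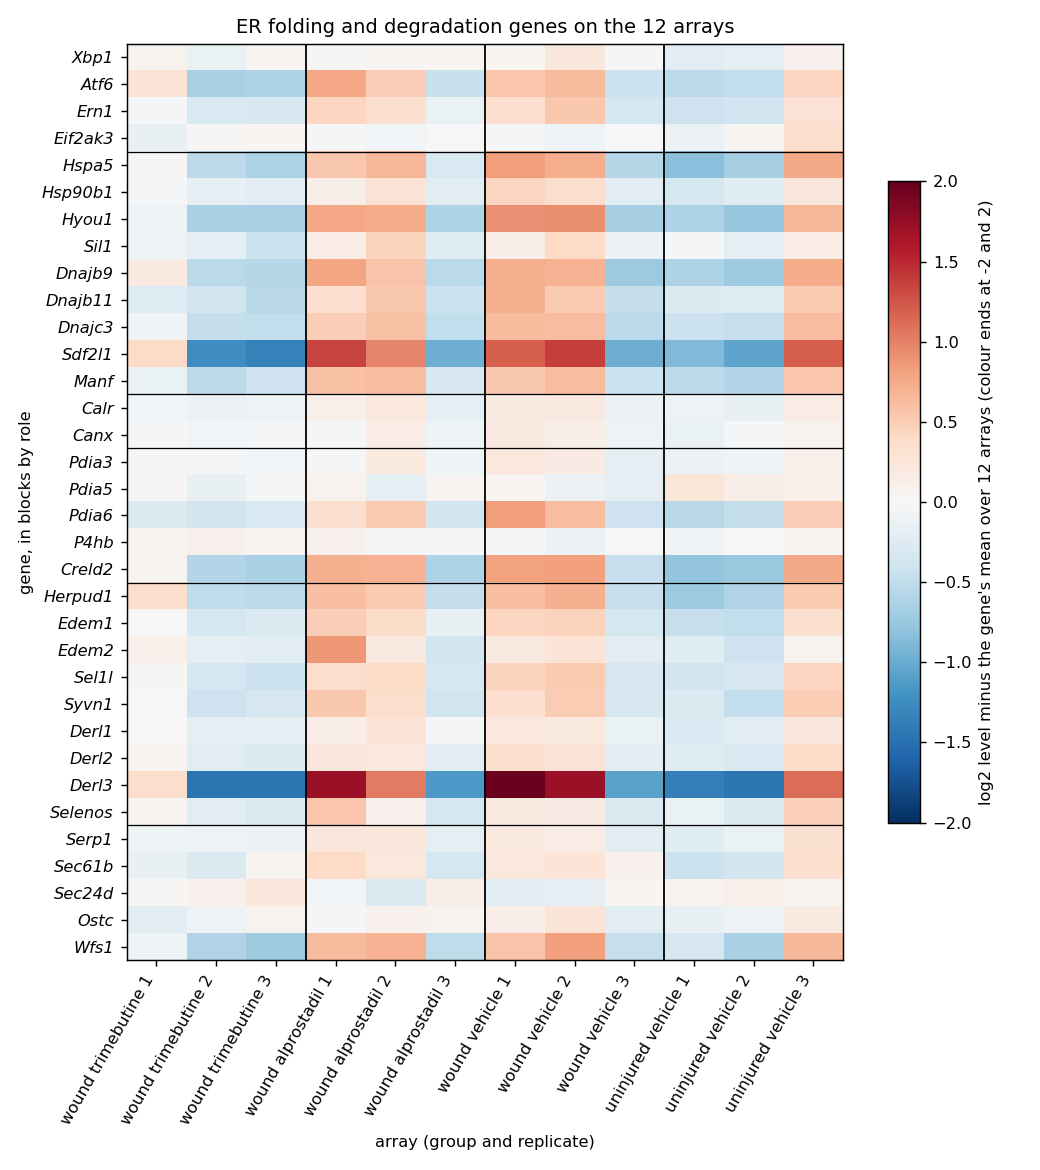
Heat map of the 34 genes (rows, in blocks by role) on the 12 arrays (columns, in groups of 3), coloured by the log2 level minus the gene's mean over the arrays, with the colour scale ending at -2 and 2. Red columns for the first and second arrays of wound alprostadil and wound vehicle and the third uninjured vehicle array cross the group borders, and Derl3 and Sdf2l1 have the deepest colours.

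With Hspa5 as the guide, 26 of the 34 genes (76.47%), Hspa5 included, had their highest levels on the same 5 arrays as Hspa5. Among all 13153 tested genes, 1039 (7.9%) did. Of the related lists described below, the calnexin cycle and N-glycosylation list had 47.06% and the PERK branch 46.67%. Other folding enzymes of the lumen had 36.36% and translocon and signal recognition 30.43%. The remaining pathway lists had 6.67% to 17.65%. None of the 34 had exactly those 5 arrays as its 5 lowest, against 4.97% of all tested genes. The 8 genes with another set of highest arrays were Xbp1, Eif2ak3, Canx, Pdia5, P4hb, Edem2, Sec24d and Ostc. The highest level of a gene fell most often on the second (10 genes) or first (8 genes) wound vehicle array or the first wound alprostadil array (7 genes), and the lowest most often on the first (11 genes) or second (7 genes) uninjured vehicle array or the third trimebutine array (5 genes). These shares are descriptions with no test, since the genes were measured on the same arrays.

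ATF6 and XBP1 act through short promoter elements, so the promoters of the 34 genes, those outside the shared pattern included, were searched for them. RefSeq promoters of build GRCm38.p6, from 250 bases before to 50 after the start of the gene, were at hand for 28 of the 34 genes (not for Atf6, Hyou1, Sil1, Manf, Derl1 and Ostc). The ER stress response element (ERSE), searched on both strands as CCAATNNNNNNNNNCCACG, was found in 9 of the 28 (32.1%): Hspa5, Hsp90b1, Dnajc3, Calr, Canx, Pdia6, Creld2, Syvn1 and Derl3. Among all genes with such a promoter it was found in 37 of 27025 (0.137%). The whole stretch before the start is shown for Hspa5, the standard readout of the response, and for Derl3, the gene with the widest range here, with the ERSE letters in capitals. In Derl3 the capitals are the reverse complement of the search letters.
Hspa5 chr2:34771840-34772089 (plus strand): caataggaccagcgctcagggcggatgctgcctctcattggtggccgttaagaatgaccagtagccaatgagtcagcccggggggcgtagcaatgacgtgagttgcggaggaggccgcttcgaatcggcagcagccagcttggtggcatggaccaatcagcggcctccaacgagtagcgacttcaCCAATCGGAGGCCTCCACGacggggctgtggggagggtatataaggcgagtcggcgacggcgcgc
Derl3 chr10:75893148-75893397 (plus strand): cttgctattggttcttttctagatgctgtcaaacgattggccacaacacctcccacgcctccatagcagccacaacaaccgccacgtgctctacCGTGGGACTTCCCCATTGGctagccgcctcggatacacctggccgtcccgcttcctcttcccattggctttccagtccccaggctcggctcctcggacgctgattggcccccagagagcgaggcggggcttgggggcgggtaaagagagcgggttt
The other ERSE matches are shown with 25 bases on each side, to let the shared CCAAT and CCACG parts be compared. Those of Calr and Creld2 are the reverse complement of the search letters, and Hsp90b1 has 1 match in each orientation.
Hsp90b1 chr10:86705508-86705681 (minus strand): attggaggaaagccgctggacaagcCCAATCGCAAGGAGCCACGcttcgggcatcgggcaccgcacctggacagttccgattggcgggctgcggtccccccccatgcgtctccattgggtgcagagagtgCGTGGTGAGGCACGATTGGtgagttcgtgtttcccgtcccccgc
Dnajc3 chr14:118937802-118937870 (plus strand): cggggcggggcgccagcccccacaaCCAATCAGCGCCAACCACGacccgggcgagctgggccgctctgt
Calr chr8:84847050-84847118 (minus strand): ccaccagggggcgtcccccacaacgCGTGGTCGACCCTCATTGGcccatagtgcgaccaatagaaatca
Canx chr11:50325775-50325843 (minus strand): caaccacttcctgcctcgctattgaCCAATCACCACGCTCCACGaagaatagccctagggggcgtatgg
Pdia6 chr12:17266466-17266534 (plus strand): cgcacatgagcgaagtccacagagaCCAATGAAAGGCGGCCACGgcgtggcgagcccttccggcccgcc
Creld2 chr15:88819495-88819563 (plus strand): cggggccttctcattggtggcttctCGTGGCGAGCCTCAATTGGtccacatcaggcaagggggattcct
Syvn1 chr19:6046507-6046575 (plus strand): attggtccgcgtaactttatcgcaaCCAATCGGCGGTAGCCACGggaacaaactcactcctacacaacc

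The compact form of the element, ERSE-II (ATTGG and CCACG with 1 base between them, both strands), was in 2 of the 28 promoters (7.14%), Dnajb11 and Herpud1, against 0.0444% of all genes. The XBP1-binding letters of the unfolded protein response element (TGACGTGG, both strands) were in 1 (3.57%), Sec24d, against 0.714% of all genes. Herpud1 followed the shared pattern and Sec24d did not, and their elements are shown in capitals with up to 25 bases on each side.
Herpud1 chr8:94386352-94386412 (plus strand): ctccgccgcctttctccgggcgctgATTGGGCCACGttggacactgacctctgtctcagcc
Sec24d chr3:123267445-123267495 (plus strand): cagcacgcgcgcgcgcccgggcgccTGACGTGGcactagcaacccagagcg
The letters CCACG alone were in 23 of the 28 promoters (82.1%), against 35.5% of all genes, so the short core is common. The ERSE and ERSE-II contain these letters, and the matches overlap. Of the 9 genes with an ERSE match, 8 had the 5 highest arrays of Hspa5, a count that holds Hspa5 itself by definition. The median range of the 9 over the 12 arrays was 1.17 (0.30 to 3.42). Of the 19 with a promoter and no such match, 13 had those 5 highest arrays, and the median range of the 19 was 0.91 (0.19 to 2.73). A match is a run of letters and not a measured binding site.

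The sensors did not move as one. Atf6, the precursor that is cut in the Golgi to free a transcription factor, was at 11.09, 10.17 and 10.20 with trimebutine, 11.59, 11.30 and 10.37 with alprostadil, 11.37, 11.44 and 10.38 in wound vehicle and 10.28, 10.32 and 11.24 in uninjured vehicle. Ern1, the kinase and nuclease that splices Xbp1 mRNA, was at 10.96, 10.68 and 10.66 with trimebutine, 11.42, 11.31 and 10.86 with alprostadil, 11.32, 11.53 and 10.64 in wound vehicle and 10.57, 10.60 and 11.27 in uninjured vehicle. Both were high on the same 5 arrays, with the first trimebutine array next, and every pair of groups overlapped. Eif2ak3, the kinase that slows translation, was at 9.77, 9.95 and 9.96 with trimebutine, 9.88, 9.87 and 9.92 with alprostadil, 9.90, 9.84 and 9.93 in wound vehicle and 9.81, 9.96 and 10.26 in uninjured vehicle. Its highest array was the third uninjured vehicle one and the other 11 lay between 9.77 and 9.96, with all groups overlapping. Xbp1, read here by a gene-level probe set that does not separate the spliced from the unspliced form, was at 12.25, 12.06 and 12.22 with trimebutine, 12.21, 12.23 and 12.23 with alprostadil, 12.22, 12.42 and 12.16 in wound vehicle and 11.98, 11.99 and 12.28 in uninjured vehicle. It spanned only 0.43 log2 units over the 12 arrays, its lowest values were on the first and second uninjured vehicle arrays, and the alprostadil arrays differed least.

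Hspa5 (BiP), the main Hsp70 chaperone of the ER, was at 11.94, 11.38 and 11.27 with trimebutine, 12.45, 12.58 and 11.60 with alprostadil, 12.74, 12.63 and 11.34 in wound vehicle and 11.07, 11.25 and 12.66 in uninjured vehicle. The wound vehicle arrays held both its highest value and one of its low values, and the third uninjured vehicle array stood with the high arrays, so the ranges of all groups overlapped. Hsp90b1 (GRP94), the Hsp90 of the ER, was at 13.09, 12.94 and 12.89 with trimebutine, 13.22, 13.40 and 12.90 with alprostadil, 13.53, 13.46 and 12.89 in wound vehicle and 12.75, 12.86 and 13.34 in uninjured vehicle. The order of its arrays was much the same over a smaller range of 0.79. Hyou1 (GRP170), which helps BiP release ADP, was at 11.51, 10.96 and 10.96 with trimebutine, 12.37, 12.35 and 10.99 with alprostadil, 12.51, 12.53 and 10.94 in wound vehicle and 10.98, 10.85 and 12.26 in uninjured vehicle, with the same arrays high and the remaining ones close together, bar the first trimebutine array. Sil1, the other exchange factor of BiP, was at 9.17, 9.10 and 8.85 with trimebutine, 9.43, 9.72 and 9.04 with alprostadil, 9.41, 9.68 and 9.16 in wound vehicle and 9.23, 9.10 and 9.43 in uninjured vehicle. Its highest value was on the second alprostadil array and its lowest on the third trimebutine array.

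Sdf2l1, a partner of the J-protein cochaperones, was at 11.18, 9.54 and 9.44 with trimebutine, 12.14, 11.76 and 9.81 with alprostadil, 11.98, 12.17 and 9.81 in wound vehicle and 9.90, 9.74 and 12 in uninjured vehicle. It spanned 2.73 log2 units, a 6.61-fold ratio of the highest to the lowest array, and 3 of the 4 groups held arrays at both ends. Dnajb11, a J-protein that hands clients to BiP, was at 11.18, 11.04 and 10.88 with trimebutine, 11.78, 11.98 and 11.01 with alprostadil, 12.15, 11.96 and 10.96 in wound vehicle and 11.16, 11.18 and 11.96 in uninjured vehicle. All 3 trimebutine arrays were in the lower part of its range, beside the third arrays of wound alprostadil and wound vehicle and the first and second of uninjured vehicle. Manf, a secreted factor that binds BiP, was at 8.48, 8.09 and 8.20 with trimebutine, 9.19, 9.22 and 8.28 with alprostadil, 9.15, 9.23 and 8.18 in wound vehicle and 8.09, 8.02 and 9.16 in uninjured vehicle, again with the 5 arrays apart from the rest. The J-proteins Dnajb9 and Dnajc3 spanned 1.53 and 1.17. Dnajb9 averaged 11.36 ± 0.43 with trimebutine, 11.95 ± 0.71 with alprostadil, 11.89 ± 0.83 in wound vehicle and 11.46 ± 0.83 in uninjured vehicle (SD, n = 3 each), with SDs larger than the gaps between most group means.

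Calr and Canx encode calreticulin and calnexin, the lectins that hold new glycoproteins. Both were nearly level on this scale: Calr spanned 0.40 and Canx 0.30 log2 units. Canx was at 13.30, 13.28 and 13.31 with trimebutine, 13.31, 13.48 and 13.25 with alprostadil, 13.51, 13.46 and 13.23 in wound vehicle and 13.21, 13.29 and 13.41 in uninjured vehicle. Its highest values were on the second alprostadil, the first and second wound vehicle and the third uninjured vehicle arrays, and the groups overlapped. Calr had the same highest arrays as Hspa5 despite its small range.

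The disulfide isomerases divided into genes that varied widely and genes that varied little. Pdia6, an isomerase that associates with BiP, averaged 11.46 ± 0.04 with trimebutine, 11.94 ± 0.47 with alprostadil, 12.13 ± 0.66 in wound vehicle and 11.60 ± 0.58 in uninjured vehicle (SD, n = 3 each). Its trimebutine SD was the smallest of the groups, with values from 11.42 to 11.50. Creld2, a factor with isomerase activity that is secreted under ER stress, averaged 11.67 ± 0.38 with trimebutine, 12.33 ± 0.76 with alprostadil, 12.45 ± 0.74 in wound vehicle and 11.81 ± 0.88 in uninjured vehicle (SD, n = 3 each). P4hb, the classical protein disulfide isomerase, had the smallest range of the 34 genes, at 12.96, 12.99 and 12.95 with trimebutine, 12.99, 12.88 and 12.87 with alprostadil, 12.89, 12.80 and 12.92 in wound vehicle and 12.82, 12.90 and 12.95 in uninjured vehicle. The trimebutine arrays were all above the wound vehicle arrays (12.95 or above, against 12.92 or below). Pdia3 (ERp57), the isomerase that works with calnexin and calreticulin, was at 13.19, 13.19 and 13.18 with trimebutine, 13.19, 13.42 and 13.14 with alprostadil, 13.44, 13.39 and 13.05 in wound vehicle and 13.11, 13.14 and 13.34 in uninjured vehicle. Its 5 highest arrays were those of Hspa5, although the first alprostadil array was level with the trimebutine arrays at this precision. Pdia5, another family member, was at 11.45, 11.29 and 11.39 with trimebutine, 11.50, 11.26 and 11.49 with alprostadil, 11.48, 11.31 and 11.25 in wound vehicle and 11.67, 11.57 and 11.54 in uninjured vehicle. Its 3 uninjured vehicle values were above all 9 values of the wound groups, a pattern unlike that of Hspa5. The share of all tested genes divided in this way was not counted.

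Among the 9 degradation genes, Derl3, a derlin of the channel that returns proteins to the cytosol, had the largest range of the 34. It was at 8.41, 6.60 and 6.61 with trimebutine, 9.79, 9.09 and 6.91 with alprostadil, 10.02, 9.79 and 6.99 in wound vehicle and 6.69, 6.61 and 9.17 in uninjured vehicle. The highest array was 10.7 times the lowest on the linear scale, and the low arrays were close to the array medians. Herpud1, which scaffolds the degradation complex, averaged 11.44 ± 0.50 with trimebutine, 11.88 ± 0.61 with alprostadil, 11.95 ± 0.65 in wound vehicle and 11.39 ± 0.69 in uninjured vehicle (SD, n = 3 each). Edem1 and Edem2, which trim mannose from misfolded glycoproteins, spanned 0.98 and 1.28. Edem2 was highest on the first alprostadil array at 11.05, where the macrophage markers were also high, and lay between 9.77 and 10.45 on the others. The part of that array's cell content in its level was not tested. Sel1l and Syvn1, the adaptor and the ubiquitin ligase of the same complex, spanned 0.96 and 1.01, the derlins Derl1 and Derl2 0.58 and 0.71, and Selenos 0.91, all with the 5 highest arrays of Hspa5.

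Of the 5 genes of translocation, export and the ER membrane, Wfs1 (wolframin, a membrane protein of ER calcium balance) varied most, with a mean of 10.17 ± 0.34 with trimebutine, 10.90 ± 0.68 with alprostadil, 10.95 ± 0.68 in wound vehicle and 10.52 ± 0.68 in uninjured vehicle (SD, n = 3 each). Sec61b, a subunit of the translocon, spanned 0.83, Serp1, a translocon-associated protein, 0.55, and Ostc, of the oligosaccharyltransferase, 0.48. Sec24d, a coat protein of the vesicles that leave the ER, was at 11.38, 11.44 and 11.59 with trimebutine, 11.30, 11.07 and 11.49 with alprostadil, 11.13, 11.19 and 11.39 in wound vehicle and 11.43, 11.45 and 11.41 in uninjured vehicle. It ran against the others: its lowest values were on the second alprostadil and first and second wound vehicle arrays, which were high for Hspa5.

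**Figure D2:**
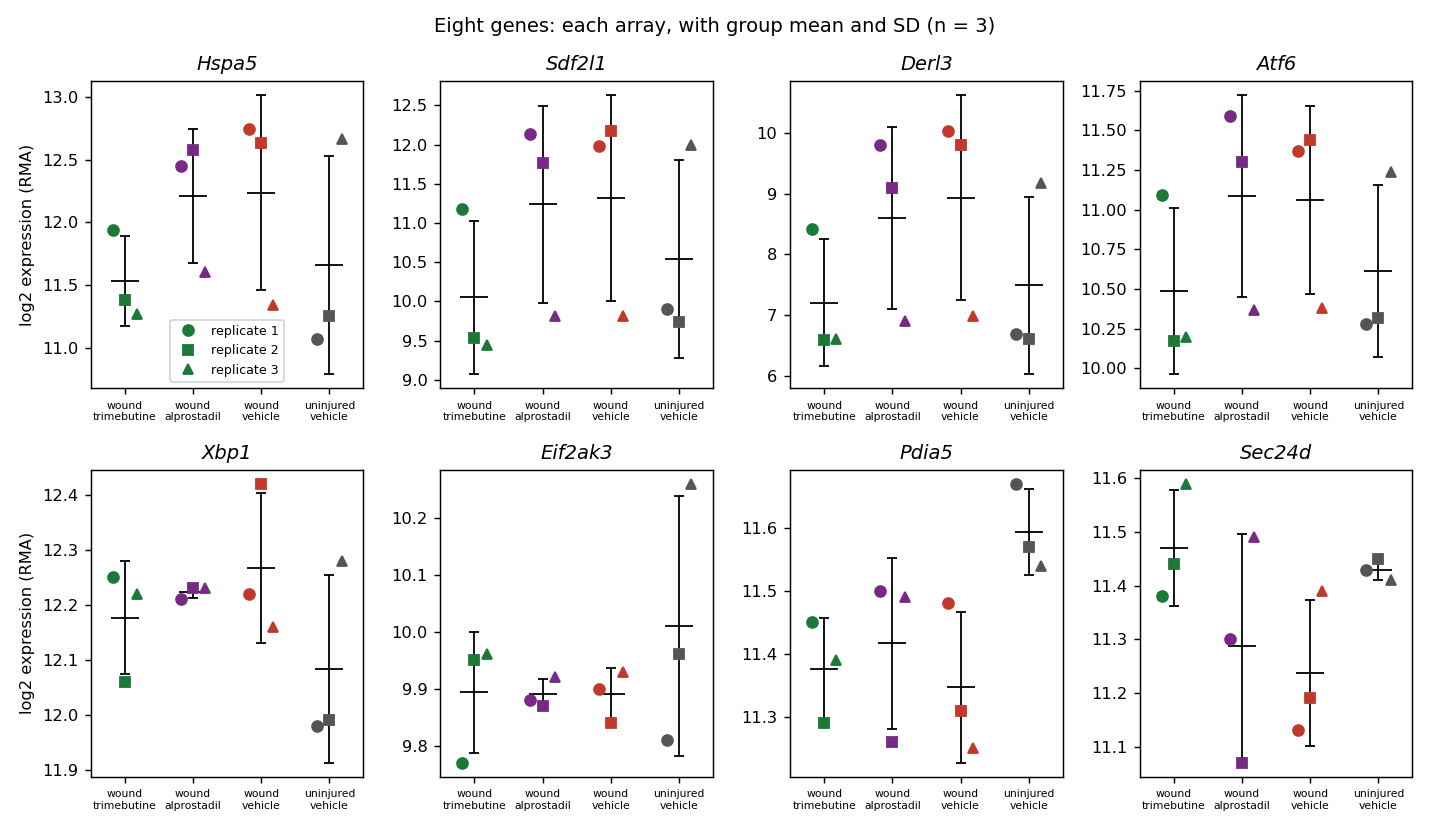
Log2 levels of 8 of the genes on each array (circle, square and triangle for replicates 1, 2 and 3) with the group mean and SD (bars, n = 3), groups from left to right being wound trimebutine, wound alprostadil, wound vehicle and uninjured vehicle, and vertical scales differing by gene. Hspa5, Sdf2l1, Derl3 and Atf6 split each vehicle group and the alprostadil group into high and low arrays, whereas Pdia5 holds the uninjured arrays above the wound arrays.

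Over the 12 arrays, the 34 genes had a median range of 0.963 log2 units (0.189 for P4hb to 3.42 for Derl3), against a median of 0.583 for all tested genes. A range over 1 was found in 15 of the 34 (44.12%) and in 21.46% of all tested genes. Derl3, Sdf2l1 and Hyou1 had the largest ranges and P4hb, Canx and Pdia3 the smallest. The share of a gene's variance that lay within groups had a median of 74.99% over the 34 and 69.92% over all tested genes.

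**Figure D3:**
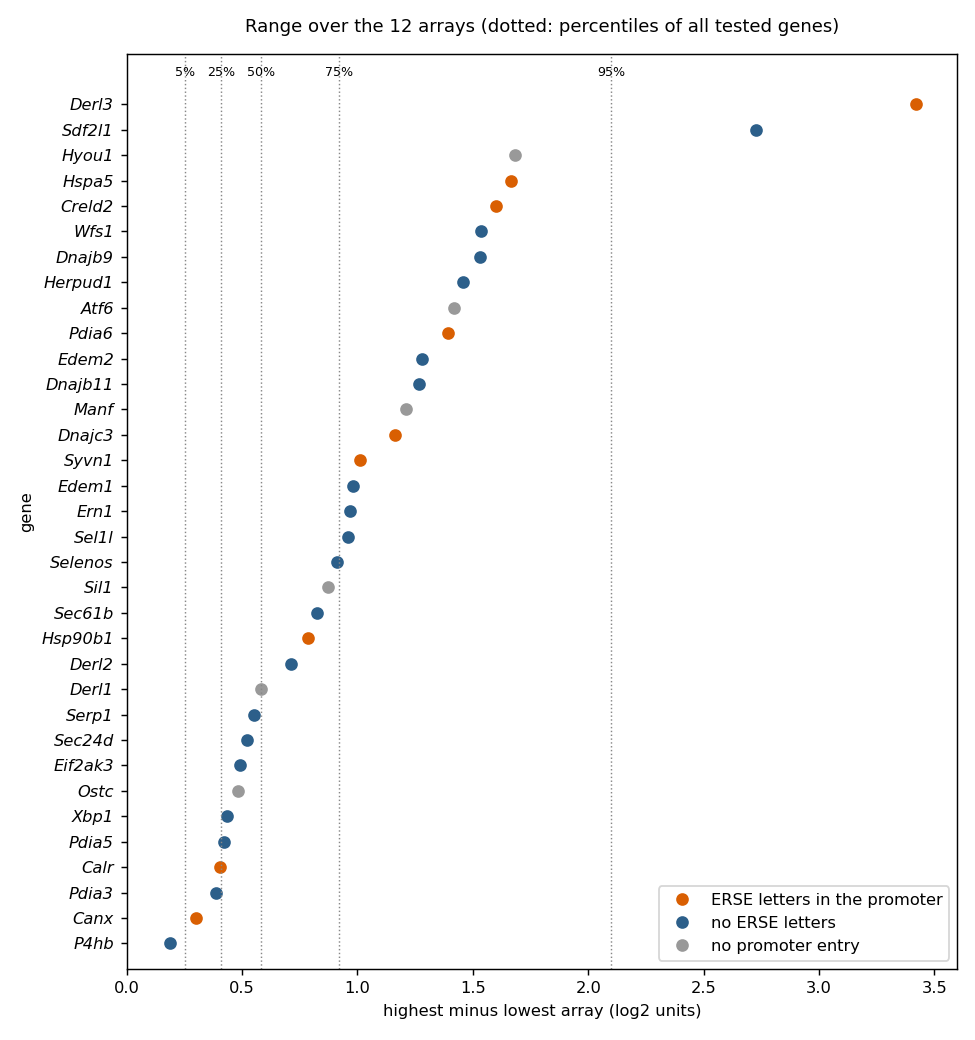
Range over the 12 arrays (highest minus lowest log2 level) of each of the 34 genes, sorted and coloured by whether the ERSE letters were found in the promoter, with dotted lines at percentiles of the ranges of all tested genes. Derl3 and Sdf2l1 lie beyond the 95th percentile of 2.1, and genes with the letters lie at both ends of the order.

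Wound vehicle was set against uninjured vehicle to ask what injury changed in the SKPs, and no gene of the 34 passed the test. With limma over all 12 arrays and Benjamini-Hochberg adjustment over the 13153 genes at 0.05, 0 of 34 were called, beside 6 of all genes (0.0456%). At an unadjusted p under 0.05 there was 1 of 34, beside 13% of all genes. The wound vehicle mean was above the uninjured vehicle mean for 30 of the 34 (88.24%), beside 51.4% of all genes. The median difference was 0.29, against 0.007 over all genes. The 9 chaperones of the Hsp70 and Hsp90 systems and their helpers all had positive differences (median 0.43), and the 9 degradation genes had a median of 0.27. Hspa5 differed by 0.57 ± 0.48 (SE), with a 95% interval of -0.50 to 1.65. The interval spans a fall and a rise, so neither a difference nor its lack is shown. The macrophage markers lay the same way, with 9 of 11 above 0 and a median difference of 0.70, and 0 of 11 called. Their part in the ER differences was not tested.

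The smallest p-values in that comparison belonged to genes outside the shared pattern. Pdia5 differed by limma (-0.25 ± 0.095 (SE), interval -0.46 to -0.037, unadjusted p = 0.0256), but its adjusted p was 0.326. Xbp1 differed by 0.18 ± 0.10 (limma adjusted p = 0.493) and Sec24d by -0.19 ± 0.11 (limma adjusted p = 0.497). Pdia5 and Sec24d were the 2 of 34 genes whose wound vehicle values all lay below the uninjured vehicle values, where 10% of all genes did, and none lay wholly above, where 8.01% did. Derl3, with its wide spread, differed by 1.45 ± 1.04 with an interval of -0.86 to 3.75. The median difference of the 34 was 0.54 without the third uninjured vehicle array and 0.51 without the third wound vehicle array. It was 0.15, 0.15 and 0.17 without the second wound vehicle, second uninjured vehicle and first uninjured vehicle arrays, and 0.19 without the first wound vehicle array.

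Trimebutine was compared with vehicle in wounds, and again 0 of 34 genes passed limma's adjusted threshold, beside 0 of all 13153 (0%). At an unadjusted p under 0.05 there was also 0 of 34, beside 9.43% of all genes. The trimebutine mean was below the wound vehicle mean for 30 of the 34, with a median difference of -0.38 against 0.00 over all genes. All 9 chaperones of the Hsp70 and Hsp90 systems had negative differences (median -0.60). The smallest p-values were those of Sec24d (0.23 ± 0.11 (SE), limma adjusted p = 0.539), Sil1 (-0.38 ± 0.19, limma adjusted p = 0.539) and Dnajb11 (-0.66 ± 0.35, limma adjusted p = 0.545). P4hb was the 1 gene wholly above and Sec61b the 1 wholly below wound vehicle, where 9.21% and 6.63% of all genes were. Sec61b lay at 7.15 or below with trimebutine and at 7.18 or above in wound vehicle, near the array medians. On its other probe set, which lay between 5.01 and 5.31 on all arrays, these groups overlapped. Hspa5 differed by -0.71 ± 0.48 with an interval of -1.78 to 0.36. The macrophage markers again lay the same way, with 9 of 11 below 0, 6 of 11 wholly below wound vehicle and a median difference of -0.80, and 0 of 11 called. Their part was not tested. The median difference of the 34 was -0.59 without the third wound vehicle array and -0.25 without the second. Because the wound vehicle arrays stand in both comparisons, with opposite signs, the 2 sets of differences are not independent of each other.

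Alprostadil was compared with vehicle in wounds with 0 of 34 genes called by limma, beside 0 of all genes (0%), and 0 of 34 at an unadjusted p under 0.05, beside 2.75%. The alprostadil mean was above the wound vehicle mean for 12 (35.29%) and below it for 22 of the 34, where 59.4% of all genes were above. The median difference was -0.028, against 0.031 over all genes. With each array centred on its median the split was 24 above and 10 below, so the sign depends on the scaling. The smallest p-values were those of Pdia5 (0.071 ± 0.095 (SE)), Hsp90b1 (-0.12 ± 0.20) and Canx (-0.055 ± 0.098), with limma adjusted p = 0.998 for each. Hspa5 differed by -0.023 ± 0.48 with an interval of -1.09 to 1.05, wide enough to hold a doubling in either direction. No gene was wholly above or below, where 2.78% and 3.12% of all genes were. The macrophage markers had a median difference of 0.73, with 10 of 11 above 0. Without the first alprostadil array, which carried these markers most strongly, the median difference was -0.14, without the second -0.12 and without the third 0.19. Without the first, the second or the third wound vehicle array it was 0.088, 0.093 or -0.23.

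Between the 2 drugs, trimebutine against alprostadil, 0 of 34 genes were called by limma, beside 0 of all genes (0%), and 0 of 34 had an unadjusted p under 0.05, beside 4.42%. The trimebutine mean was lower for 31 of the 34 and higher for 3 (8.82%), where 46.23% of all genes were higher. The median difference was -0.37, against -0.015 over all genes. Sil1 (-0.36 ± 0.19 (SE)), Manf (-0.64 ± 0.38) and Ern1 (-0.43 ± 0.26) had the smallest p-values, each with a limma adjusted p = 0.752. No gene was wholly above or below, where 5.21% and 6.03% of all genes were. The macrophage markers had a median difference of -1.48, with 10 of 11 below 0, and their part was not tested. The median difference of the 34 was -0.61 without the third alprostadil array and -0.25 without the first. The labels state no doses, so this sets side by side 2 conditions and not matched doses.

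**Figure D4:**
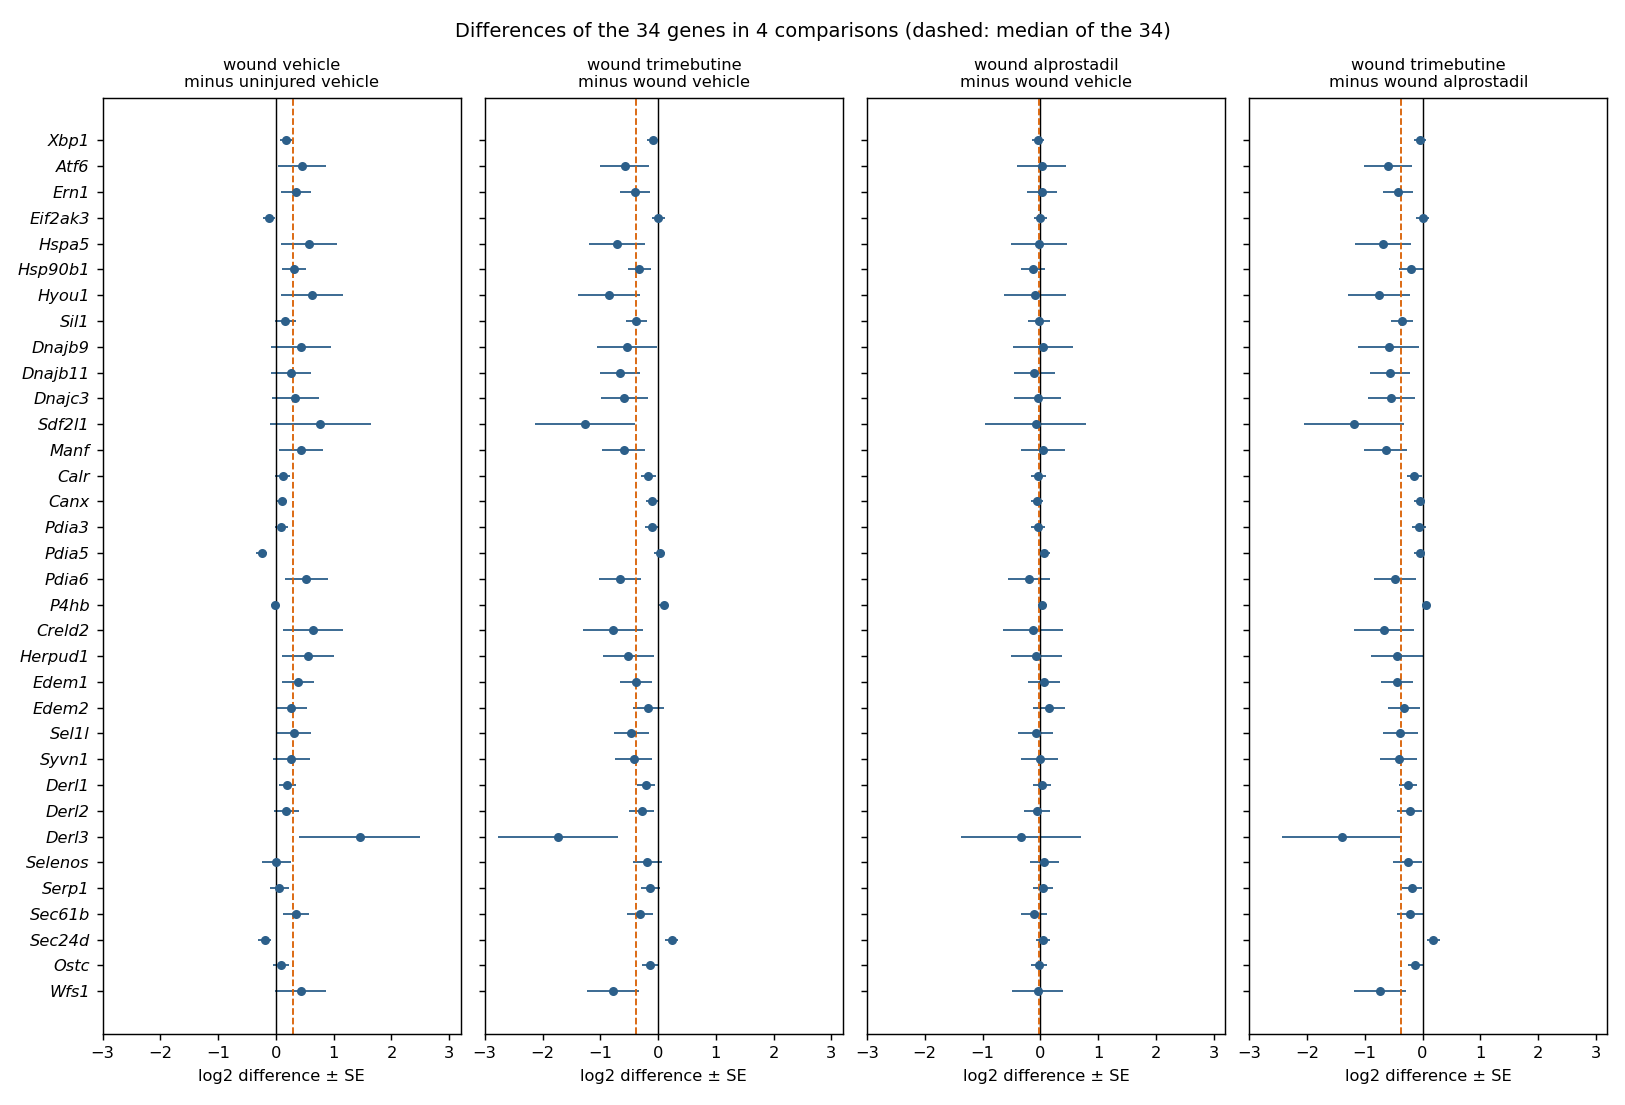
Log2 difference of each of the 34 genes in the 4 comparisons (points, with bars for the SE of the limma fit over 12 arrays), a solid line at 0 and a dashed line at the median of the 34. The dashed lines lie at 0.29, -0.38, -0.028 and -0.37, and Derl3 and Sdf2l1 have the longest bars in every panel.

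A test of equal means in all 4 groups (limma's moderated F test) called 0 of 34 genes, beside 2 of 13153 (0.0152%), and 0 of 34 had an unadjusted p under 0.05, beside 7.89%. Pdia5 had the smallest limma adjusted p at 0.658, followed by Sec24d at 0.694 and Sil1 at 0.71.

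Other genes of the same pathways were read from lists drawn up by function, and limma called 0 genes of any of these lists in any of the 4 comparisons. At an unadjusted p under 0.05, collagen folding and modification had 6 of 15 genes both in wound vehicle minus uninjured vehicle, beside 13% of all genes, and in trimebutine minus wound vehicle, beside 9.43%. In these 2 comparisons the other pathway lists had 0 to 4 genes each, of 14 to 28. The PERK branch, with 15 genes, had its higher arrays where the 34 genes did, and on the first trimebutine array too. Its centred mean was 0.35, -0.51 and -0.65 on the trimebutine arrays, 0.59, 0.30 and -0.16 on the alprostadil arrays, 0.52, 0.32 and -0.41 on the wound vehicle arrays and -0.46, -0.26 and 0.37 on the uninjured vehicle arrays. Ddit3 (CHOP), its transcription factor linked to cell death, was at 11.43, 10.35 and 10.23 with trimebutine, 11.76, 11.95 and 10.83 with alprostadil, 12.16, 12.10 and 10.52 in wound vehicle and 9.49, 10.28 and 11.80 in uninjured vehicle. Trib3, a pseudokinase induced by CHOP, was at 9.74, 8.72 and 8.43 with trimebutine, 10.01, 10.15 and 9.24 with alprostadil, 10.19, 10.19 and 8.74 in wound vehicle and 7.84, 8.62 and 10.04 in uninjured vehicle. Both were high on the same 5 arrays and the first trimebutine array came next. Atf4, which is controlled mainly at translation, spanned 0.82. Its highest value was on the first trimebutine array (10.47), with the same 5 arrays next (10.19 to 10.35). Of the 15 genes, 7 (46.67%) had the same 5 highest arrays as Hspa5. Ddit4 and Vldlr ran otherwise, both lowest on the second alprostadil array (8.61 and 11.13). They differed by -0.90 ± 0.35 (SE) and -0.40 ± 0.15 in wound vehicle minus uninjured vehicle. In wound vehicle minus uninjured vehicle, 10 of the 15 genes were above 0 and 5 below, and in trimebutine minus wound vehicle 3 were above and 12 below.

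The neighbouring machinery had smaller median differences. The calnexin cycle and N-glycosylation (17 genes) had 14 above 0 and 3 below in wound vehicle minus uninjured vehicle (median 0.10), and 5 above and 12 below in trimebutine minus wound vehicle (median -0.17). Translocon and signal recognition (23 genes) had 18 above and 5 below (median 0.069), then 4 above and 19 below (median -0.073). Sec11c, a subunit of signal peptidase in that list, was at 9.35, 9.21 and 9.06 with trimebutine, 10.30, 10.27 and 9.12 with alprostadil, 10.18, 10 and 9.11 in wound vehicle and 9.51, 9.26 and 10.11 in uninjured vehicle, with the 5 highest arrays of Hspa5. The other folding enzymes of the lumen (22 genes) had medians of 0.035 and -0.094, further degradation genes (17 genes) 0.007 and 0.003, partners of IRE1 and ATF6 (14 genes) -0.028 and 0.04, and ER to Golgi transport (28 genes) -0.097 and 0.039. Chaperones of cytosol and mitochondria (21 genes) had medians of 0.048 and 0.02, and their centred means ran from -0.16 to 0.33, the highest on the first trimebutine array.

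Collagen folding and modification, the matrix branch of the same compartment, ran the other way. Of its 15 genes, 2 were above 0 and 13 below in wound vehicle minus uninjured vehicle (median -0.25), and 14 were above and 1 below in trimebutine minus wound vehicle (median 0.29). P4ha3, a subunit of collagen prolyl hydroxylase, was at 10.26, 9.82 and 9.70 with trimebutine, 8.20, 6.27 and 9.92 with alprostadil, 6.41, 6.28 and 9.41 in wound vehicle and 10.42, 10.47 and 9.09 in uninjured vehicle. It was lowest on the second alprostadil and the first and second wound vehicle arrays. P4ha3 differed by -2.62 ± 0.97 (SE) in wound vehicle minus uninjured vehicle (limma adjusted p = 0.312), and Tmem38b, an ER cation channel needed for collagen assembly, by -0.89 ± 0.23 (limma adjusted p = 0.195). Fkbp9, a prolyl isomerase of the ER, differed by -0.59 ± 0.22 (limma adjusted p = 0.319).

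Other gene groups were also unlike between the same arrays. Mitosis genes (27 genes) had centred means of 0.72, 0.13 and 0.19 with trimebutine, 1.07, -1.02 and 0.16 with alprostadil, -0.98, -1.28 and 0.52 in wound vehicle and 0.81, 0.21 and -0.53 in uninjured vehicle. They were thus low on 4 of the 5 arrays where the ER genes were high, and high on the fifth, the first alprostadil array. Of the dermal and SKP markers, 14 were tested, and their centred mean was 0.18, 0.25 and 0.23 with trimebutine, -0.39, -0.38 and 0.25 with alprostadil, -0.39, -0.62 and 0.20 in wound vehicle and 0.23, 0.35 and 0.08 in uninjured vehicle. In wound vehicle minus uninjured vehicle, all 27 mitosis genes were below 0 (median -0.725). In trimebutine minus wound vehicle, all 27 were above 0 (median 0.961). The 14 dermal and SKP markers had 2 above 0 and 12 below in the former (median -0.486). In the latter they had 12 above and 2 below (median 0.497). Limma called 0 genes of either list. The part of proliferation and of cell content in the levels of the ER genes was not tested.

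**Figure D5:**
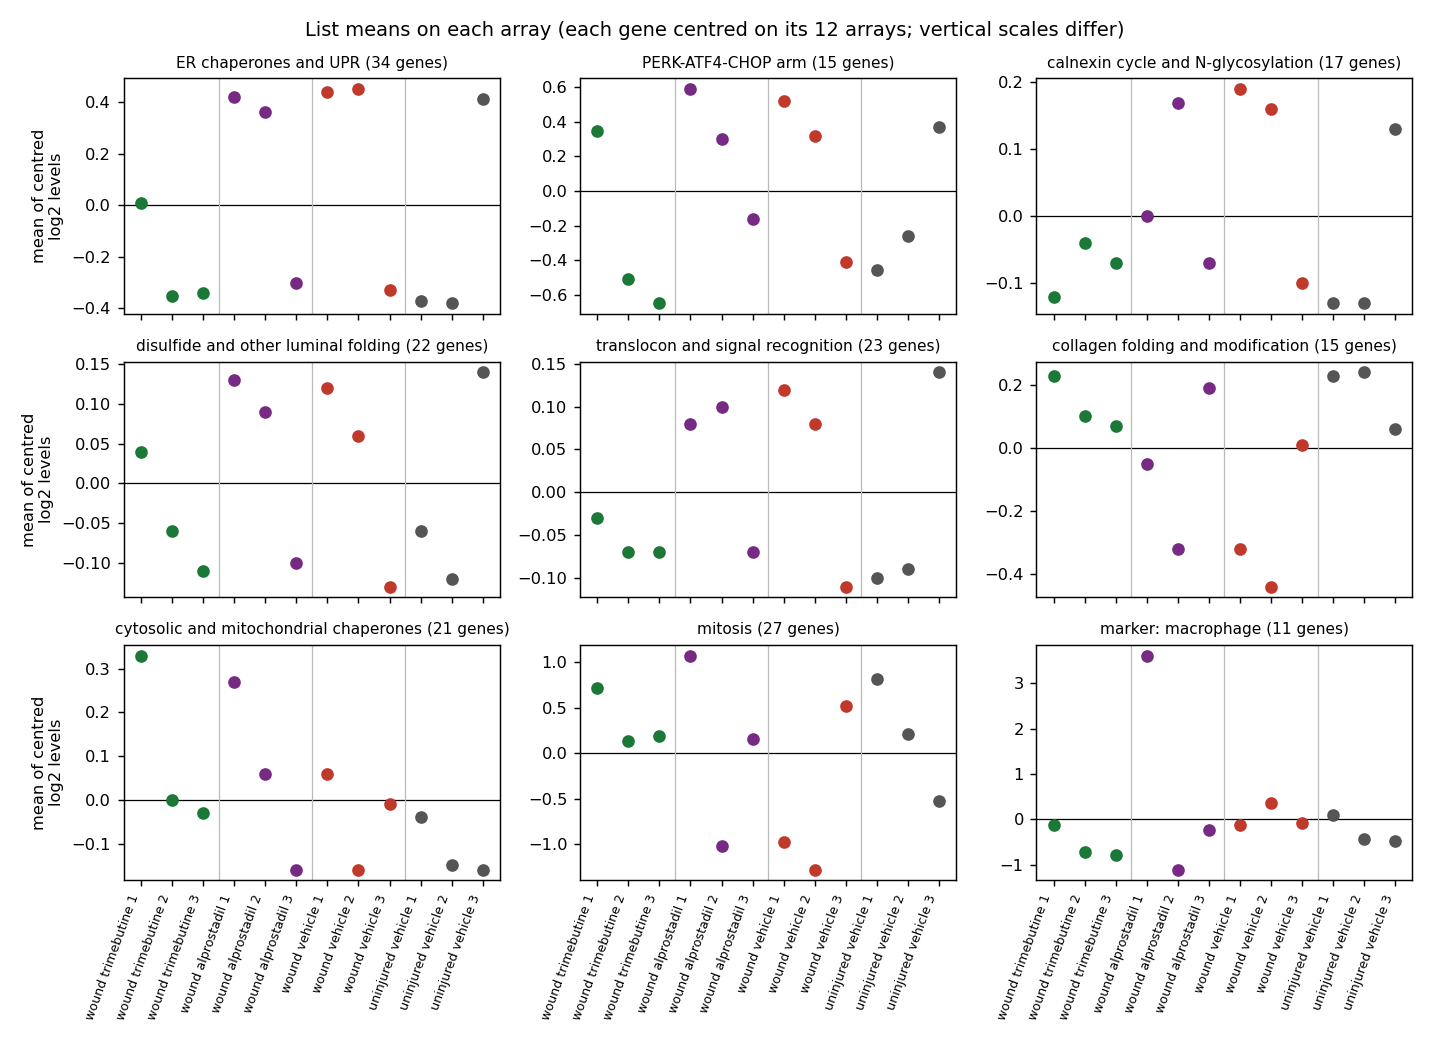
Mean of the centred log2 levels of each gene list (1 point per array, groups separated by lines, vertical scales differing) for the 34 genes and 8 other lists. The PERK branch resembles the 34 genes, collagen folding and mitosis are low on the first and second wound vehicle arrays (collagen folding -0.32 and -0.44, mitosis -0.98 and -1.28), and the macrophage list stands out on the first alprostadil array at 3.61.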

How the data were processed

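RNA of 12 SKP cultures was measured on Affymetrix Mouse Gene 2.0 ST arrays. The deposited values are log2 levels that the authors made with RMA (oligo package), as the submitters' processing notes give it without versions, so background and between-array differences were already adjusted. The table held 41345 probe sets: 23521 had 1 gene symbol, 1814 several and 16010 none in the platform annotation. The probe set of highest mean stood for each symbol, giving 22180 genes, and 13153 above the array's median on at least 3 of 12 arrays were tested. One limma model (3.58.1, R 4.3.3) without covariates covered the 4 groups, with 8 residual degrees of freedom, two-sided tests and Benjamini-Hochberg adjustment at 0.05, and was tested on simulated data. The precision is limited by 3 arrays a group. The members and lists were chosen with earlier results of these data known. Values on every array were given for the sensors and main chaperones, for the 3 members of smallest p in each test, and for the 3 largest and 3 smallest ranges. Per the labels, replicate numbers are shared by the groups. Deviations of same-numbered arrays correlated at 0.193, 0.432 and 0.618 between alprostadil and wound vehicle and at 0.572, 0.221 and 0.421 between trimebutine and alprostadil. The labels do not say that the number pairs the arrays, and the main fits took no pairing in any comparison. A block for the number, over all 4 groups, was run as an alternative only. Alternatives were the replicate block, other filters, scalings, probe set means and priors, and leaving out each array.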

Additional observations from a re-analysis of the deposited data

How the results depend on the processing

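Limma called 0 of the ER genes in the 4 comparisons and the F test under the alternatives run and with each array left out in turn. These fits held all 34 genes, except that the filter 1 unit above the array median and the mean of probe sets left 33, without Sec61b. Their smallest adjusted p over all settings was 0.175 (Pdia6) for wound vehicle minus uninjured vehicle and 0.123 (Dnajb11) for trimebutine minus wound vehicle, both without the third wound vehicle array, 0.75 for alprostadil minus wound vehicle, 0.301 for trimebutine minus alprostadil and 0.32 for the F test. The 6 genes called among all genes in wound vehicle minus uninjured vehicle became 2 with the replicate block, 1 with arrays centred on their median and 0 with only the groups compared in the fit, and leaving out an array gave 0 to 30. The F test's 2 calls became 0 with the block, 1 with a filter 1 unit above the array median, 1 with centred arrays and 0 to 6 with an array left out. Leaving out an array gave 0 to 11 calls in trimebutine minus wound vehicle (11 without the third wound vehicle array), 0 to 1 in alprostadil minus wound vehicle and 0 to 1 in trimebutine minus alprostadil. Without an array, the median difference of the 34 genes ran from 0.148 to 0.539, from -0.586 to -0.246, from -0.233 to 0.187 and from -0.607 to -0.249 in wound vehicle minus uninjured vehicle, trimebutine minus wound vehicle, alprostadil minus wound vehicle and trimebutine minus alprostadil. In the same order, the other settings gave 0.236 to 0.289, -0.388 to -0.327, -0.038 to 0.034 and -0.384 to -0.348. The cause was not tested. Centring moved the first alprostadil array by 0.127 and the others by less than 0.1.

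Deviations of same-numbered arrays correlated at -0.364, -0.377 and -0.644 between wound vehicle and uninjured vehicle. Between trimebutine and wound vehicle they correlated at 0.287, -0.168 and 0.227. Of all arrays, 5 of 12 correlated best with an array of their own number. Whether the number pairs any of the groups cannot be told from these values. With the block, the smallest adjusted p of the 34 genes was 0.258, 0.485, 0.985 and 0.687 in the 4 comparisons and 0.548 in the F test, and no call of a gene among the 34 changed.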

Other observations

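Outside the 34 genes, the ERSE letters were found in the promoters of 28 other genes, of which 20 were measured and 8 tested. Of the 8, 2 had the same 5 highest arrays as Hspa5, and both belong to ER protein maturation. Ero1b, an oxidase that recharges disulfide isomerases, was at 8.39, 7.66 and 7.41 with trimebutine, 9.87, 9.88 and 7.56 with alprostadil, 9.88, 10.10 and 7.57 in wound vehicle and 7.37, 7.37 and 9.69 in uninjured vehicle. Alg12, a mannosyltransferase of N-glycan assembly, was at 10.68, 10.28 and 10.05 with trimebutine, 11.14, 11.41 and 10.43 with alprostadil, 11.22, 11.51 and 10.29 in wound vehicle and 10.36, 9.92 and 11.14 in uninjured vehicle. Their ranges over the 12 arrays were 2.73 and 1.59. The other 6 (Acacb, Hnrnpa3, Pan2, Spats2l, Xlr3a and Zfp57) had other highest arrays. Both sets were read from the same arrays as the 34 genes, and the genes were named after their values were seen.

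The inducible cytosolic chaperone Hspa1a did not follow the ER genes. It was at 10.28, 8.24 and 8.20 with trimebutine, 9.86, 8.78 and 8 with alprostadil, 9.61, 8.35 and 8.70 in wound vehicle and 7.71, 7.66 and 7.40 in uninjured vehicle. All 9 wound arrays were above the 3 uninjured vehicle arrays, at 8 or above against 7.71 or below, and the first array of each wound group was its group's highest, from 9.61 to 10.28. Wound vehicle minus uninjured vehicle was 1.30 ± 0.60 (SE, limma adjusted p = 0.395), and 8.01% of all genes had wound vehicle wholly above uninjured vehicle. The share of all genes with all 9 wound arrays above was not counted. Hspa1a was named because its p was among the smallest of its list in these data.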
